A study of Mus musculus with 20 samples.

Results

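Cgref1, Ly6d, Aqp4, Itga2, Rgs16 and Eif4ebp3, a mixed set of genes taken as having little known role in fasted liver, were followed through the livers of fasted and fed mice. They are 6 of the 55487 genes counted, and they were picked from these data because their transcripts rose steeply on fasting in at least 1 genotype. Their fasting rise is therefore described below and not tested. The rule for picking them set no numerical limit, and whether each is little known in fasted liver is not something these data measure.

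Liver RNA of female C57BL/6N mice aged 15 weeks was sequenced in 4 groups of 5 libraries: Plin2-null fasted, Plin2-null fed, Plin2+/+ fasted and Plin2+/+ fed. Fed mice had chow, and fasted mice had no food for 24 h. Plin2 encodes perilipin 2, a protein that coats lipid droplets. For 10 libraries the labels name only the feeding state. Since the design text mentions Plin2+/+ and Plin2-/- mice and no others, elimination leaves Plin2-/- for these, and Plin2-null is the name used here. No label ties a library to a litter, cage, batch or day, so a p-value here reflects how much these samples scatter, which may in part be technical. How the Plin2 allele was disrupted is not given in the labels.

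In fasting, the liver draws on fatty acids released from adipose tissue. It oxidises them, makes ketone bodies and exports glucose, and the receptor PPARA, glucagon signalling and glucocorticoids raise the transcripts of the enzymes involved. None of the 6 genes encodes an enzyme of those pathways. Cgref1 encodes a secreted calcium-binding EF-hand protein, described as a growth inhibitor in cultured cells. Ly6d encodes a GPI-anchored surface protein of the LY6/uPAR family, known from early B-lineage cells and squamous epithelia. Aqp4 encodes the water channel of astrocyte end-feet, skeletal muscle and gastric parietal cells. Itga2 encodes the integrin alpha-2 chain, which pairs with the beta-1 chain as a collagen receptor and is known from platelets, natural killer cells and epithelia. Rgs16 encodes a GTPase-activating protein that shortens signalling through Gi and Gq proteins, and in mouse liver it has been described in periportal hepatocytes as a transcript that follows the feeding cycle. Eif4ebp3 encodes a member of the 4E-BP family, which bind the cap-binding protein eIF4E and hold back translation initiation, and it has been described as rising when mTORC1 is inhibited for long.

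Since the 6 genes were picked for a rise on fasting, that rise does not point to shared control, which was not tested. The upstream sequences of Itga2, Cgref1 and Rgs16 are shown for description. They are the 250 bases before the RefSeq start in build GRCm38.p6, written 5′ to 3′ on the gene's own strand, and the capitals mark every match to the motifs searched. Of the 2 RefSeq starts of Cgref1, the downstream one was taken. The window of Rgs16 is chr1:153740103-153740352 on the plus strand, that of Cgref1 chr5:30945428-30945677 on the minus strand and that of Itga2 chr13:114932101-114932350 on the minus strand.
Cgref1: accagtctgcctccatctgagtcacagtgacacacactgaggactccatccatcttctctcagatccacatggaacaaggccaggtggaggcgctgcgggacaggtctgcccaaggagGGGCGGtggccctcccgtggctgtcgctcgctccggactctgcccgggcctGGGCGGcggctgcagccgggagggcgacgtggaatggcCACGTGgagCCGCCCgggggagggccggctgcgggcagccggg
Itga2: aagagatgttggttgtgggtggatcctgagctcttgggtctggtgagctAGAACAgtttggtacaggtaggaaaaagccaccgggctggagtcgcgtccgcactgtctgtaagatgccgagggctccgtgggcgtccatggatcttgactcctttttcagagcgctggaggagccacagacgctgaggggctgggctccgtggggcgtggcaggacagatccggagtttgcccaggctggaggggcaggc
Rgs16: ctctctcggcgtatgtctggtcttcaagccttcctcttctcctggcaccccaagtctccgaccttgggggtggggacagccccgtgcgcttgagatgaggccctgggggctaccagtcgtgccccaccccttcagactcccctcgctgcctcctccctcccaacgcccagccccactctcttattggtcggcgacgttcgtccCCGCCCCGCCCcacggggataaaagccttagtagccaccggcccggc
Windows of Ly6d, Aqp4 and Eif4ebp3 are not shown.

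The motifs were searched on both strands: the E-box CACGTG, the direct repeat AGGTCANAGGTCA that binds PPARA with its partner, its half-site AGGTCA, the FOXO motif TGTTTAC, the cyclic AMP half-site TGACG, the glucocorticoid half-site AGAACA, the GC box GGGCGG and the TATA motif TATAAA. Cgref1 held an E-box at -43 to -38 and 3 GC boxes. Rgs16 held 2 GC boxes that overlap by 1 base, and Itga2 held 1 glucocorticoid half-site at -201 to -196. Among 32851 RefSeq windows of the same length, 6.02% held the E-box, 32.7% the GC box and 16.1% the glucocorticoid half-site. The direct repeat, its half-site, the FOXO motif, the cyclic AMP half-site and the TATA motif had no match in the 3 windows shown. The window of the other RefSeq start of Cgref1, which lies upstream and is not shown, held a cyclic AMP half-site at -217 to -213 and 2 GC boxes, and it held no E-box. The 2 windows overlap. Those GC boxes, at -79 to -74 and -28 to -23, are the ones at -132 to -127 and -81 to -76 in the window shown. The E-box lies just downstream of the other start, outside its window. The 5 motifs without a match in the windows shown are in 0.0335%, 14.0%, 3.17%, 17.8% and 12.4% of all windows in that order. GC content was 70.0% for Cgref1, 60.8% for Itga2 and 66.4% for Rgs16, against a median of 52.4% over all windows.

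Library totals ran from 25506471 to 65579038 counts, and 16312 genes passed the filter on low counts. All 6 genes passed it, but a gene that is high in 1 group passes through that group alone. Plin2 averaged 60.4 ± 21.6 TPM in Plin2-null fasted, 15.7 ± 5.21 in Plin2-null fed, 1019 ± 242 in Plin2+/+ fasted and 197 ± 51.2 in Plin2+/+ fed livers (SD, n = 5 each), where TPM is a read level corrected for gene length and library size. The highest Plin2-null library lay below the lowest Plin2+/+ library in each feeding state, 96.8 against 631 TPM fasted and 25.0 against 137 TPM fed. The 6 hepatocyte markers (Alb, Ttr, Apoa1, Trf, Cps1 and Hnf4a) summed to between 83997 and 172796 TPM per library. In bulk RNA of this kind, more cells of a type and more RNA per cell cannot be told apart.

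All 6 transcripts were higher in fasted than in fed livers of both genotypes, and for 5 of them no fasted library overlapped a fed library in either genotype. In Plin2-null livers the fitted log2 fold changes, fasted over fed, ran from 3.53 for Itga2 to 6.10 for Cgref1. In Plin2+/+ livers they ran from 3.26 for Ly6d to 5.90 for Itga2. Among all 16312 genes, 1.5% rose by a log2 fold change of at least 2 in Plin2-null livers and 1.58% in Plin2+/+ livers. A rise with no overlap of the TPM values was found for 3.24% of 19838 genes in Plin2-null and 5.75% in Plin2+/+ livers, and a fall for 15.8% and 13.0%. On log2(TPM + 0.1) the median change of all genes was -0.28 in Plin2-null and -0.16 in Plin2+/+ livers. The TPM scale thus lowers the share of rises. Since the genes were taken for this rise, these shares are given only as background. In Plin2-null livers 36.1% of all genes changed on fasting at an adjusted p under 0.05 in the quasi-likelihood test of edgeR (18.0% higher and 18.1% lower). In Plin2+/+ livers 42.6% did (20.9% higher and 21.7% lower).

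**Figure D1:**
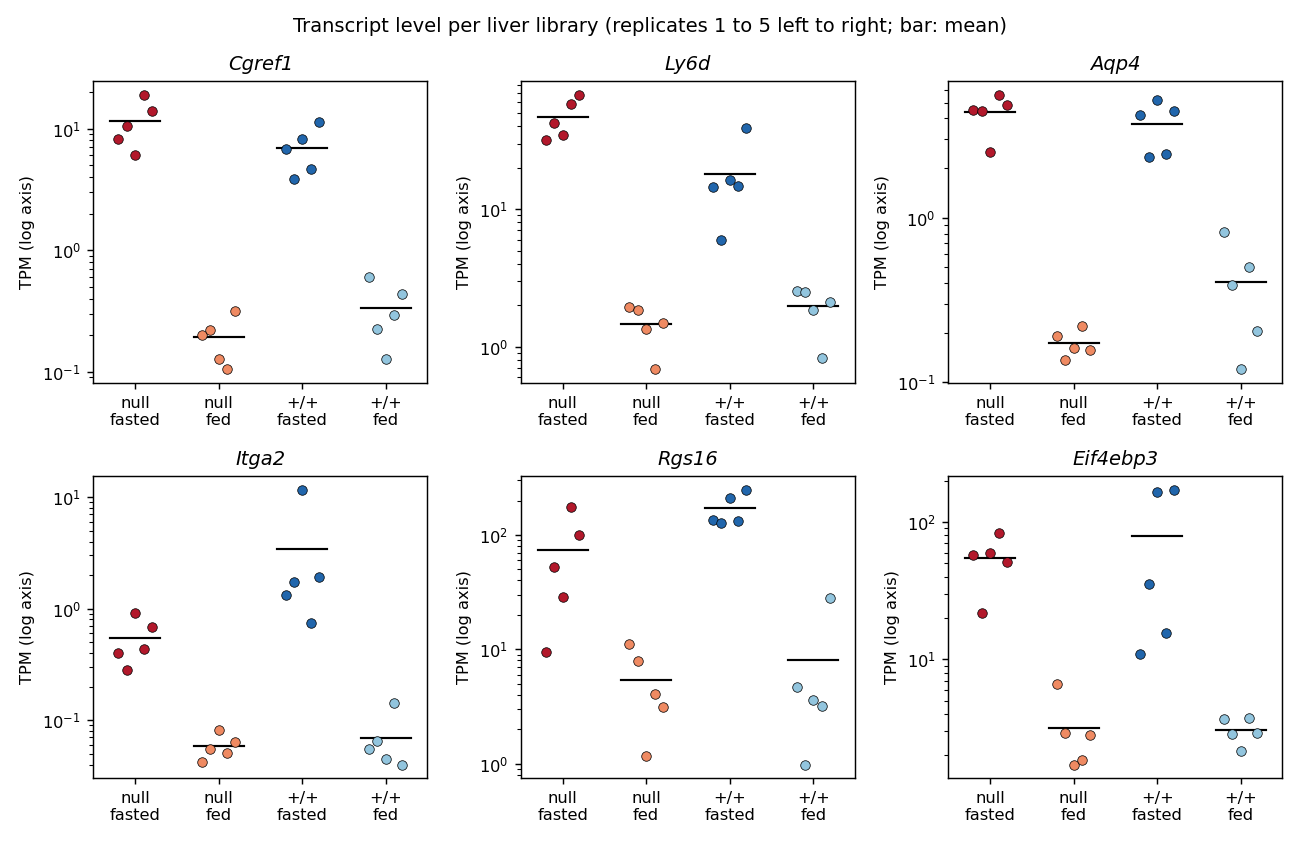
Transcript level in TPM (log axis) of each gene in every liver library, with the 5 replicates of a group from left to right and a bar at the group mean. In each panel the fasted libraries stand above the fed libraries of their genotype, except Rgs16 in Plin2-null livers, where the lowest fasted library (9.46 TPM) lies below the highest fed one (11.0 TPM).

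Cgref1 (ENSMUSG00000029161, chr5:30933143-30945591, minus strand, GRCm38) had the steepest rise of the 6 in Plin2-null livers. Its TPM values were 8.14, 10.4, 6.01, 18.9 and 13.9 in the Plin2-null fasted libraries, against 0.201, 0.221, 0.127, 0.104 and 0.314 in the Plin2-null fed ones. In Plin2+/+ livers they were 6.75, 3.81, 8.23, 4.68 and 11.4 in the fasted libraries, against 0.596, 0.225, 0.128, 0.294 and 0.433 in the fed ones. The groups do not come near each other: the lowest fasted value was 19.2 times the highest fed value in Plin2-null and 6.39 times in Plin2+/+ livers. Fed libraries held only 3 to 25 counts of Cgref1, so the fed level, and with it the fold change, rests on few reads. The log2 fold change on fasting was 6.10 ± 0.36 in Plin2-null livers and 4.49 ± 0.33 in Plin2+/+ livers (SE), at places 9 and 39 among all genes tested.

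Ly6d (ENSMUSG00000034634, chr15:74762056-74763620, minus strand) had the highest ratio of the 6 between Plin2-null fasted and Plin2+/+ fasted means, at 2.60. In Plin2-null livers it stood at 31.7, 42.7, 34.5, 58.0 and 68.0 TPM in the fasted libraries, against 1.93, 1.85, 1.35, 0.682 and 1.49 TPM in the fed ones. In Plin2+/+ livers it stood at 14.4, 6.00, 16.3, 14.6 and 38.8 TPM in the fasted libraries, against 2.54, 2.52, 1.86, 0.823 and 2.10 TPM in the fed ones. Fasted and fed libraries did not overlap in either genotype, and the Plin2+/+ fasted libraries spread over a wider relative range than the Plin2-null ones, with replicate 5 alone at the Plin2-null level. Log2 fold changes on fasting were 5.25 ± 0.39 in Plin2-null and 3.26 ± 0.36 in Plin2+/+ livers (SE), at places 17 and 89.

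Aqp4 (ENSMUSG00000024411, chr18:15389496-15410982, minus strand) was the least scattered of the 6 in fasted Plin2-null livers, with a coefficient of variation of 26.2%. Its Plin2-null values were 4.53, 4.44, 2.49, 5.57 and 4.86 TPM fasted, against 0.192, 0.137, 0.162, 0.221 and 0.157 TPM fed. Its Plin2+/+ values were 4.22, 2.33, 5.15, 2.42 and 4.44 TPM fasted, against 0.820, 0.392, 0.120, 0.502 and 0.205 TPM fed. No fasted library fell among the fed ones, and the fasted ranges of the genotypes lie on top of each other, while the fed Plin2+/+ libraries reached higher than the fed Plin2-null ones. The log2 fold change on fasting was 4.90 ± 0.35 in Plin2-null and 3.35 ± 0.32 in Plin2+/+ livers (SE), at places 23 and 84. An antisense gene, AC133525.2, overlaps Aqp4, and as the strand setting of the counting is not given, reads of the pair cannot be told apart.

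Itga2 (ENSMUSG00000015533, chr13:114833081-114932100, minus strand) was the lowest of the 6 in fed livers. In Plin2-null livers its TPM values were 0.398, 0.284, 0.912, 0.431 and 0.686 fasted, against 0.0420, 0.0553, 0.0818, 0.0508 and 0.0641 fed, where a fed library held 5 to 11 counts. In Plin2+/+ livers they were 1.32, 1.74, 11.6, 0.737 and 1.92 fasted, against 0.0557, 0.0656, 0.0448, 0.143 and 0.0399 fed. Every fasted library lay above every fed library of its genotype, and 1 library stood far above the rest: Plin2+/+ fasted replicate 3 held 67.0% of its group's summed TPM. The log2 fold change on fasting was 3.53 ± 0.83 in Plin2-null and 5.90 ± 0.80 in Plin2+/+ livers (SE), at places 76 and 13. Without that replicate the Plin2+/+ value was 4.54.

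Rgs16 (ENSMUSG00000026475, chr1:153740349-153745468, plus strand) was the most abundant of the 6 in fasted livers, and the most scattered in Plin2-null fasted ones. Its Plin2-null values were 9.46, 52.4, 28.6, 177 and 99.8 TPM fasted, against 11.0, 7.84, 1.16, 4.03 and 3.15 TPM fed. Its Plin2+/+ values were 135, 128, 211, 132 and 248 TPM fasted, against 4.65, 0.978, 3.57, 3.17 and 28.2 TPM fed. In Plin2-null livers fasted replicate 1 lay below fed replicate 1, so the groups overlapped, while in Plin2+/+ livers all 5 fasted libraries stood above all fed ones. Coefficients of variation were 91.1% in Plin2-null fasted and 72.7% in Plin2-null fed livers, and 32.4% in Plin2+/+ fasted and 139% in Plin2+/+ fed livers. Log2 fold changes on fasting were 3.94 ± 0.87 in Plin2-null and 4.55 ± 0.89 in Plin2+/+ livers (SE), at places 53 and 36. Without Plin2+/+ fed replicate 5, which held 69.5% of its group's summed TPM, the Plin2+/+ value was 5.94. The antisense gene Gm28513 overlaps Rgs16, with the same limit on assigning reads.

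Eif4ebp3 (ENSMUSG00000090264, chr18:36664060-36665917, plus strand) had 57.3, 21.6, 59.9, 83.7 and 50.8 TPM in Plin2-null fasted livers, against 6.60, 2.91, 1.71, 1.85 and 2.81 TPM in Plin2-null fed livers. In Plin2+/+ livers it had 11.0, 35.6, 164, 15.5 and 171 TPM fasted, against 3.67, 2.87, 2.15, 3.75 and 2.93 TPM fed. Groups did not overlap in either genotype, but the Plin2+/+ fasted libraries split into replicates 3 and 5 at a high level and replicates 1, 2 and 4 well below them. Log2 fold changes on fasting were 4.39 ± 0.74 in Plin2-null and 4.85 ± 0.75 in Plin2+/+ livers (SE), at places 38 and 27. A readthrough gene, AC115631.1, runs over Eif4ebp3 on the same strand, and counting could split reads between them; it was at -0.36 ± 0.26 in Plin2-null and 0.45 ± 0.25 in Plin2+/+ livers on the same log2 scale, neither past the test (edgeR adjusted p = 0.292 and 0.154).

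Set in order of TPM, a scale on which genes can be compared, the fasted means in Plin2-null livers were 73.4 for Rgs16, 54.7 for Eif4ebp3, 47.0 for Ly6d, 11.5 for Cgref1, 4.38 for Aqp4 and 0.542 for Itga2. The ranges of the first 3 overlapped, and Cgref1, Aqp4 and Itga2 each lay wholly below the gene before it. In Plin2+/+ fasted livers the order of means was the same, at 171, 79.6, 18.0, 6.98, 3.71 and 3.46 TPM, but every neighbouring pair overlapped. Rgs16 in its median Plin2+/+ fasted library stood above 99.0% of all TPM rows, and Itga2 in its median Plin2-null fasted library above 72.4%. All 55493 rows count here, while only 16312 genes passed the filter on low counts. Itga2 in its median Plin2-null fed library, with 5 to 11 counts per library, already stood above 62.7%.

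The genotype comparison asks whether loss of Plin2 shifts these genes within a feeding state. It is a contrast that the choice of genes did not use directly, but a gene picked for a steep rise in 1 genotype leans towards a higher fasted level there. In fasted livers Ly6d was higher and Itga2 lower in Plin2-null mice, and the other 4 genes did not pass the test. That is 2 of 6 genes, against 3.24% of all genes that changed with genotype in fasted mice (1.51% higher and 1.73% lower). Both called genes were higher in the genotype where they rose more steeply, the direction in which the choice leans. The share is therefore background and not a measure of an excess among the 6. In fed livers none of the 6 passed edgeR's test, against 0.0184% of all genes (0.0123% higher and 0.00613% lower); at an unadjusted p under 0.05, 694 of all 16312 genes differed there.

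Ly6d averaged 47.0 ± 15.6 TPM in Plin2-null fasted and 18.0 ± 12.3 TPM in Plin2+/+ fasted livers (SD, n = 5 each). Each of the 5 Plin2-null libraries exceeded 4 of the 5 Plin2+/+ libraries, and Plin2+/+ replicate 5 at 38.8 TPM overlapped the Plin2-null range. The log2 fold change was 1.46 ± 0.31 (SE, edgeR adjusted p = 0.0198). It stayed positive, from 1.25 to 1.87, in all 29 alternative settings, of which 21 kept the call, with adjusted p from 0.000786 to 0.136. The call ended without Plin2-null fasted replicate 5 (adjusted p = 0.0693) and without Plin2+/+ fasted replicate 1, 2 or 3 (adjusted p = 0.0659, 0.0584 and 0.0536), and with library size as the only scaling (adjusted p = 0.0551). It also ended in the fit on the fasted groups alone (adjusted p = 0.0805) and with limma on log2(TPM + 1) or log2(TPM + 0.1) (adjusted p = 0.0962 and 0.136).

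Markers of the cells that Ly6d is known from were measured beside it. The 9 B cell and plasmacytoid dendritic cell markers summed to between 1.58 and 6.51 TPM in Plin2-null fasted, 4.09 and 7.21 in Plin2-null fed, 1.01 and 4.25 in Plin2+/+ fasted and 5.39 and 9.35 in Plin2+/+ fed livers, and none was at 0 throughout a group. In fasted livers 2 of the 9 were higher in Plin2-null mice, Fcer2a (log2 fold change 2.22, edgeR adjusted p = 0.0211) and Ms4a1 (1.44, adjusted p = 0.0437), and Ccr9 was lower (-1.46, adjusted p = 0.0337). The median of the list was 1.19, against 0.02 over all genes, of which 1.51% were higher and 1.73% lower. With library size as the only scaling Ms4a1 and Ccr9 were no longer called, and limma on TPM called none of the 9. The list median was 0.17 with limma on log2(TPM + 1) and 0.64 on log2(TPM + 0.1). On fasting itself 0 of the 9 rose and 1 fell in Plin2-null livers, and 0 rose and 7 fell in Plin2+/+ livers. These and the later marker counts on fasting stand beside 18.0% of all genes higher and 18.1% lower in Plin2-null livers. In Plin2+/+ livers the shares were 20.9% and 21.7%. Ly6d was at least 31.7 TPM in the Plin2-null fasted libraries. A sum of marker TPM does not bound what another transcript of the same cells can reach. Squamous epithelial markers summed to at most 1.18 TPM in any library, with Krt5, Krt13, Krt15 and Dsc3 at 0 in all 20. The part of these cells in the Ly6d difference was not tested.

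Itga2 averaged 0.542 ± 0.254 TPM in Plin2-null fasted and 3.46 ± 4.57 TPM in Plin2+/+ fasted livers (SD, n = 5 each). The 4 higher Plin2+/+ libraries all exceeded every Plin2-null library, and Plin2+/+ replicate 4 at 0.737 TPM lay within the Plin2-null range. The log2 fold change was -2.63 ± 0.64 (SE, edgeR adjusted p = 0.0393). It depended strongly on 1 library: without Plin2+/+ fasted replicate 3 it was -1.26 (adjusted p = 0.0859). The call also ended without Plin2-null fasted replicate 1, 2, 4 or 5, Plin2-null fed replicate 3, Plin2+/+ fasted replicate 1 or 2, or Plin2+/+ fed replicate 3. Over the 29 alternatives adjusted p ran from 0.00417 to 0.214, 15 kept the call and the sign was negative in all of them.

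Markers of platelets and natural killer cells, which carry the integrin alpha-2 chain, were measured beside Itga2. The 11 platelet markers summed to between 7.24 and 14.4 TPM in Plin2-null fasted, 5.24 and 7.90 in Plin2-null fed, 8.46 and 17.9 in Plin2+/+ fasted and 4.19 and 11.5 in Plin2+/+ fed livers. Only 3 of them could be tested, with a median on fasting of 1.00 in Plin2-null and 0.04 in Plin2+/+ livers (log2). Itgb3, which is not confined to platelets, rose in both genotypes. It averaged 7.27 TPM in Plin2-null fasted and 12.2 TPM in Plin2+/+ fasted livers, a large part of the sums above. The platelet chain Itga2b was at 0.05 ± 0.20 in Plin2-null and 0.04 ± 0.20 in Plin2+/+ livers on fasting (log2, SE). Gp1bb was at 0 in all 20 libraries. Of 8 natural killer cell markers tested, 1 rose in Plin2-null (Prf1) and 2 rose in Plin2+/+ livers (Prf1 and Klrb1c), and the 10 listed summed to between 4.19 and 9.96 TPM over all libraries. Neither list had a member called between the genotypes in fasted livers. The part of these cells in the Itga2 values was not tested.

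For the other 4 genes the genotype difference in fasted livers did not pass the test, and all 4 had overlapping groups. Cgref1 averaged 11.5 ± 5.09 TPM in Plin2-null and 6.98 ± 3.02 TPM in Plin2+/+ livers (SD, n = 5 each), a log2 fold change of 0.73 ± 0.26 (SE, edgeR adjusted p = 0.0957). Without Plin2+/+ fasted replicate 5 it was 0.92 and passed (adjusted p = 0.0311), and over 29 alternatives adjusted p ran from 0.0311 to 0.370. Rgs16 averaged 73.4 ± 66.8 TPM in Plin2-null and 171 ± 55.4 TPM in Plin2+/+ livers (SD, n = 5 each), a log2 fold change of -1.28 ± 0.78 (SE, edgeR adjusted p = 0.318). Aqp4 was at 0.26 ± 0.28 (adjusted p = 0.586) and Eif4ebp3 at -0.49 ± 0.61 (adjusted p = 0.654) by edgeR. The Eif4ebp3 value was 0.05 without Plin2+/+ fasted replicate 3 and 0.17 with limma on log2(TPM + 0.1), so its sign was not stable.

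In fed livers the largest genotype difference of the 6 was that of Aqp4, at 0.174 ± 0.0329 TPM in Plin2-null and 0.408 ± 0.275 TPM in Plin2+/+ livers (SD, n = 5 each). Its log2 fold change was -1.29 ± 0.36 (SE, edgeR adjusted p = 0.930). The other 5 lay between -0.88 for Cgref1 and -0.02 for Eif4ebp3, each with an edgeR adjusted p of 1.00. Rgs16 was at -0.67 ± 0.81 (SE) and at 0.71 without Plin2+/+ fed replicate 5, so its direction there is set by 1 library.

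The fasting rises of the genotypes are set side by side without a test, since these are differences of the contrasts that chose the genes. Cgref1, Ly6d and Aqp4 had the larger log2 rise in Plin2-null livers, by 1.61 ± 0.50, 1.99 ± 0.51 and 1.55 ± 0.45 (SE). Each difference joins a fasted and a fed part. Plin2-null over Plin2+/+ was 0.26 fasted and -1.29 fed for Aqp4, 0.73 and -0.88 for Cgref1, and 1.46 and -0.53 for Ly6d. For Aqp4 and Cgref1 the larger part was thus a lower fed level in Plin2-null livers, which did not pass the test. For Itga2, Rgs16 and Eif4ebp3 the difference was negative, at -2.37 ± 1.23, -0.61 ± 1.11 and -0.46 ± 0.98 (SE), which for Rgs16 and Eif4ebp3 is within 1 SE. The sign held in all 28 alternatives for the first 3 genes, Itga2 and Rgs16, whereas for Eif4ebp3 it turned in 4 of 28. Over all genes edgeR called 0% with such a difference, with 2250 at an unadjusted p under 0.05, and DESeq2 called 63 genes.

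**Figure D2:**
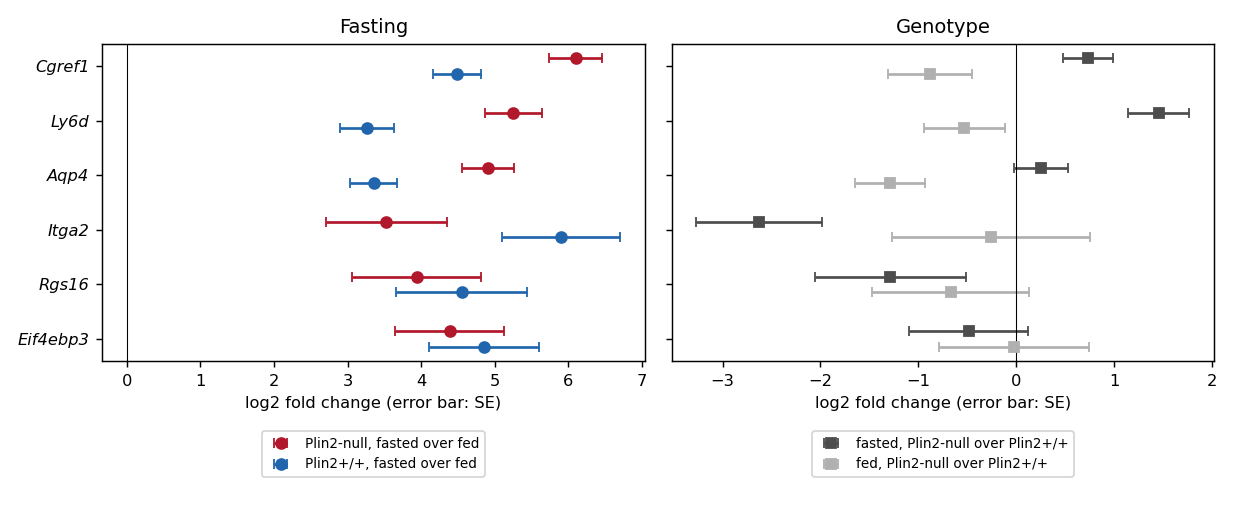
Log2 fold changes with SE on fasting (left, Plin2-null above Plin2+/+ for each gene) and between genotypes (right, fasted above fed). Cgref1, Ly6d and Aqp4 have the larger rise in Plin2-null livers, with fed genotype values of -0.88, -0.53 and -1.29. The fasted genotype values run from -2.63 for Itga2 to 1.46 for Ly6d.

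Some libraries were the highest of their group for several of the 6 genes at once. On TPM, Plin2-null fasted replicate 4 had the highest value of its group for 4 of the 6 (Cgref1, Aqp4, Rgs16 and Eif4ebp3), and Plin2+/+ fasted replicate 5 for 4 (Cgref1, Ly6d, Rgs16 and Eif4ebp3). Plin2+/+ fasted replicate 3 was highest on TPM for Itga2 and Aqp4, and replicate 2 of that group was lowest for 4 genes. These places depended on the scale. On TMM-scaled CPM, Plin2+/+ fasted replicate 3 stood above replicate 5 for Rgs16 (226 against 217) and Eif4ebp3 (56.0 against 47.6). Plin2-null fasted replicate 3 stood above replicate 4 for Eif4ebp3 (27.2 against 22.6). On that scale Plin2+/+ fasted replicate 2 was lowest for Cgref1 and Ly6d, and not for Aqp4 or Rgs16. Pairwise relations were computed over the 10 fasted libraries on log2 CPM, with each library taken as its difference from its genotype mean. Of 15 pairs, none passed a permutation test with 100000 resamples (two-sided) after adjustment.

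The nearest to it was Cgref1 with Ly6d, with Pearson's r of 0.771 (permutation p = 0.00336, adjusted 0.0504) and Spearman's rho of 0.855 (permutation p = 0.00338, adjusted 0.0507). Without the 2 libraries farthest from the median of Cgref1, r was 0.714. For Cgref1 with Aqp4 r was 0.736 (permutation p = 0.0118, adjusted 0.0589), rho 0.806 (permutation p = 0.00715, adjusted 0.0536), and r without 2 libraries 0.839. On log2(TPM + 0.1) both of these pairs passed, with r of 0.839 and 0.872. For Itga2 with Eif4ebp3 r was 0.718 (permutation p = 0.0170, adjusted 0.0639), rho 0.745 (permutation p = 0.0180, adjusted 0.0675), and r without 2 libraries 0.590. Itga2 had its lowest r with Ly6d, 0.143, with rho of 0.382 (permutation p = 0.671 and 0.280, adjusted 0.671 and 0.382).

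**Figure D3:**
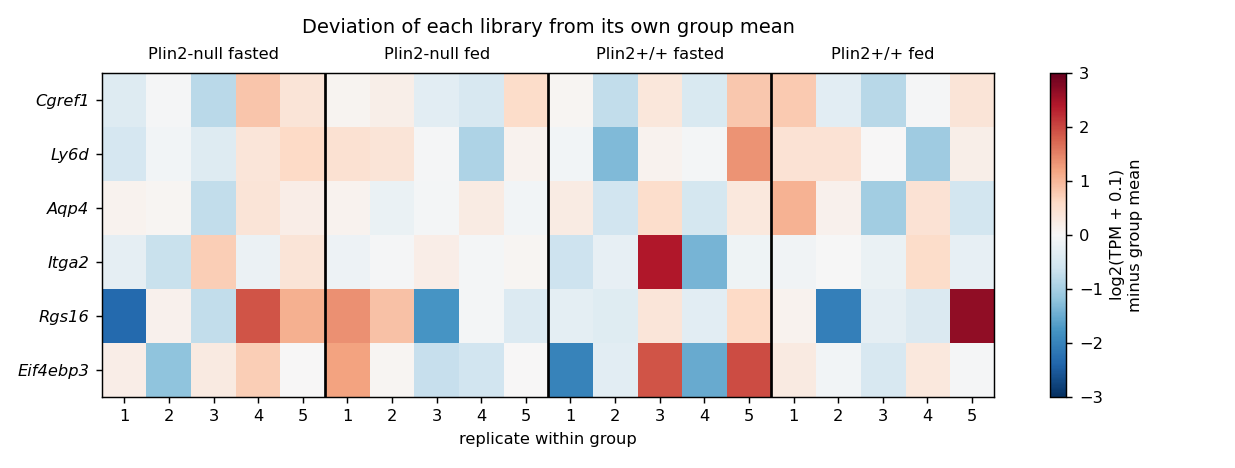
Deviation of each library from its own group mean on log2(TPM + 0.1), genes in rows and the 20 libraries in columns, red above and blue below the mean. The strongest colours are those of Itga2, Rgs16 and Eif4ebp3, and Plin2+/+ fasted replicate 3 stands out for Itga2 (11.6 TPM).

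The genes whose pattern over the 20 libraries was nearest to each of the 6 were found by the root mean square difference of centred log2 CPM among 11391 genes. Because the fasting rise makes up most of that pattern, genes with a like rise come first by the measure itself. Cgref1 was nearest to Acot2 (0.544), an acyl-CoA thioesterase, to Apoa4 (0.681), an apolipoprotein, and to Aqp4 (0.693). Aqp4 was nearest to Ehhadh (0.495), a peroxisomal beta-oxidation enzyme, to Cyp4a31 (0.606) and to Acot1 (0.643). Ly6d was nearest to Ehhadh (0.681), Acot2 (0.711) and Apoa4 (0.724). Reads of Acot1, Acot2 and Cyp4a31 may be shared with near-identical relatives, which makes their values uncertain.

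Itga2 was nearest to Lepr (0.743), the leptin receptor, to Cend1 (0.785) and to Krt23 (0.897). These rose on the log2 scale by 4.24 ± 0.47, 4.14 ± 0.68 and 3.26 ± 0.34 in Plin2-null livers and by 4.95 ± 0.49, 6.19 ± 0.68 and 3.96 ± 0.33 in Plin2+/+ livers (SE). Eif4ebp3 was nearest to Apoa4 (0.707), to Plin5 (0.904), a perilipin of oxidative tissues, and to Cend1 (0.960). Rgs16 had no close neighbour: the first was Cend1 at 1.25 and the fourth Fgf21, a fasting hormone of the liver, at 1.33. Its own root mean square deviation was 2.65, and that of the other 5 genes lay between 2.15 and 2.58.

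The chromosomal neighbours of the 6 genes changed less than the genes themselves, which were picked for a steep rise. Of 21 neighbouring genes tested (the nearest on each side and any within 50 kb), 0 reached a log2 fold change of 2 on fasting in either genotype. Only 1.5% of all genes did so in Plin2-null and 1.58% in Plin2+/+ livers, so 0 is near the share over all genes. In Plin2-null livers 5 rose and 2 fell, with a median of 0.01, against 18.0% of all genes higher and 18.1% lower. In Plin2+/+ livers 3 rose and 5 fell, with a median of -0.02, against 20.9% higher and 21.7% lower. The median over all genes was -0.01 in each. Abhd1, 4475 bases from Cgref1, rose by 1.34 ± 0.22 in Plin2-null and 0.94 ± 0.22 in Plin2+/+ livers (log2, SE; edgeR adjusted p = 6.27e-05 and 0.00165). Khk, the fructose kinase gene on the other side of Cgref1, was at -0.28 ± 0.25 in Plin2-null livers and fell by 1.37 ± 0.25 in Plin2+/+ livers (edgeR adjusted p = 0.396 and 0.000216). Itga1, the integrin alpha-1 gene 20996 bases from Itga2, was at -0.01 ± 0.12 in Plin2-null and 0.20 ± 0.12 in Plin2+/+ livers, neither called by edgeR (adjusted p = 0.941 and 0.185).

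**Figure D4:**
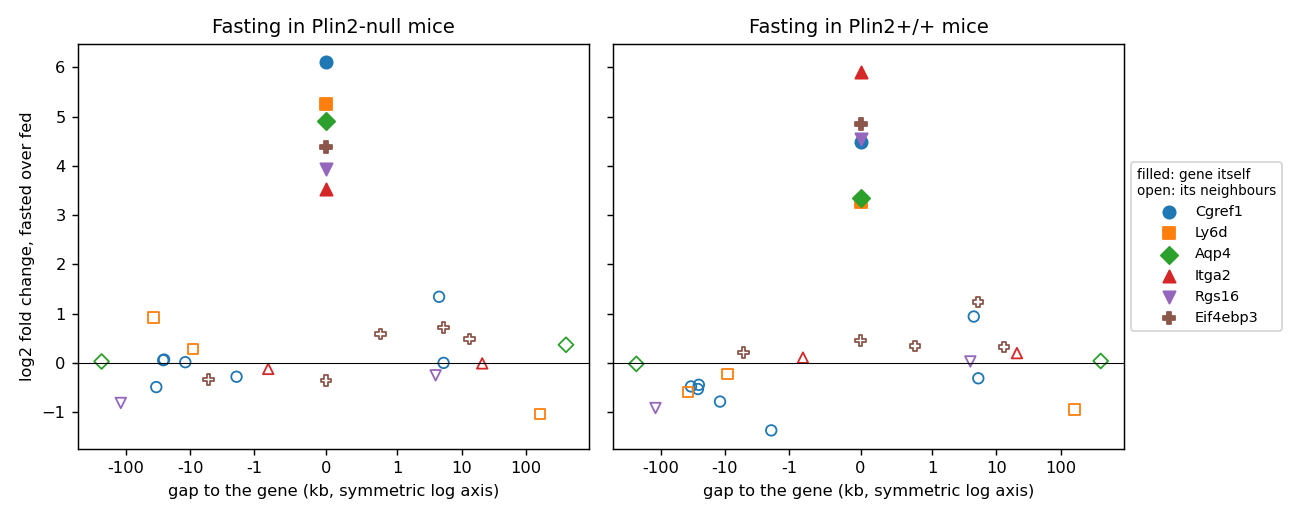
Log2 fold change on fasting of the 6 genes (filled, at 0) and of their tested neighbours (open) against the gap between the genes in kb (symmetric log axis), Plin2-null livers on the left. The highest neighbour is Abhd1 at 1.34 in Plin2-null and Apbb3 at 1.23 in Plin2+/+ livers.

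Relatives of each gene, taken as whole families or pathways, mostly stood below it, which the choice of steep risers favours. Each count of relatives here and below stands beside 18.0% of all genes higher and 18.1% lower in Plin2-null livers. In Plin2+/+ livers these shares were 20.9% and 21.7%. The counts of integrin, LY6/uPAR, aquaporin and RGS genes that rose lie near or below these shares, and are not read as a result about these families. Among 16 other integrin chains tested, 2 rose and 6 fell in Plin2-null livers, and 2 rose and 5 fell in Plin2+/+ livers, with medians of -0.10 and -0.03. Itgb1, the partner of the alpha-2 chain, averaged 92.3 TPM in Plin2-null fasted and 102 TPM in Plin2-null fed livers, and 110 TPM in Plin2+/+ fasted and 98.4 TPM in Plin2+/+ fed livers. It was thus far above Itga2 in all groups; its log2 fold change on fasting was 0.14 ± 0.10 in Plin2-null and 0.32 ± 0.10 in Plin2+/+ livers (edgeR adjusted p = 0.295 and 0.0145). Itga6, a laminin receptor chain, fell, at -0.79 ± 0.22 in Plin2-null and -1.93 ± 0.23 in Plin2+/+ livers (edgeR adjusted p = 0.00782 and 7.81e-07).

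Of 8 other LY6/uPAR genes tested, 1 rose and 3 fell in Plin2-null livers and 0 rose and 4 fell in Plin2+/+ livers, with medians of -0.32 and -0.71. Ly6e, the most abundant of those called, fell, at -1.52 ± 0.20 in Plin2-null and -1.99 ± 0.21 in Plin2+/+ livers (edgeR adjusted p = 5.82e-06 and 1.51e-07). Of 4 other aquaporins tested, 0 rose and 1 fell in Plin2-null livers and 0 rose and 2 fell in Plin2+/+ livers. Aqp8, a water and ammonia channel of hepatocytes, averaged 23.4 TPM in Plin2-null fasted and 183 TPM in Plin2-null fed livers, and 8.79 TPM in Plin2+/+ fasted and 145 TPM in Plin2+/+ fed livers. Aqp8 fell, at -2.69 ± 0.35 in Plin2-null and -3.94 ± 0.38 in Plin2+/+ livers on the log2 scale (edgeR adjusted p = 1.07e-05 and 1.90e-07), the reverse of Aqp4. Aqp9, the glycerol channel of hepatocytes, was by far the more abundant at 272, 287, 275 and 252 TPM in Plin2-null fasted, Plin2-null fed, Plin2+/+ fasted and Plin2+/+ fed livers, and did not pass the test (edgeR adjusted p = 0.194 and 0.0592). Fasted Aqp4, at 4.38 TPM in Plin2-null and 3.71 TPM in Plin2+/+ livers, remained a minor aquaporin transcript.

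Among 10 other RGS genes tested, 1 rose and 2 fell in Plin2-null livers and 1 rose and 4 fell in Plin2+/+ livers, with medians of -0.33 and -0.46. Rgs1, known from immune cells, was the gene that rose, by 2.12 ± 0.66 in Plin2-null and 1.93 ± 0.64 in Plin2+/+ livers (edgeR adjusted p = 0.0174 and 0.0215), at 1.56 TPM in Plin2-null fasted and 1.74 TPM in Plin2+/+ fasted livers. Limma on log2(TPM + 1) or log2(TPM + 0.1) did not call it. T cell markers, listed because T cells express Rgs16, went lower or did not pass: 0 of 8 rose and 1 fell in Plin2-null livers, and 0 rose and 2 fell in Plin2+/+ livers. Their sum was between 2.57 and 7.92 TPM over all libraries.

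The genes set beside Eif4ebp3 and Cgref1 went more often up than down, though their medians stood far below both genes. Of 15 cap-binding and 4E-BP genes, 9 rose and 2 fell in Plin2-null livers and 8 rose and 0 fell in Plin2+/+ livers, with medians of 0.34 and 0.27. Eif4ebp1, the 4E-BP best known as a target of mTORC1, rose by 1.05 ± 0.22 in Plin2-null and 0.63 ± 0.22 in Plin2+/+ livers (edgeR adjusted p = 0.000660 and 0.0221). Eif4ebp2 fell by 0.47 ± 0.13 in Plin2-null livers and was at -0.22 ± 0.13 in Plin2+/+ livers (edgeR adjusted p = 0.00878 and 0.204). In TPM, Eif4ebp3 averaged 54.7 against 10.1 for Eif4ebp1 and 89.0 for Eif4ebp2 in Plin2-null fasted livers, and 3.18 against 5.99 and 145 in Plin2-null fed livers. With library size as the only scaling, which shifts the median of all genes by -0.21 in Plin2-null and -0.16 in Plin2+/+ livers, 3 of the 15 rose and 2 fell in Plin2-null livers and 4 rose and 1 fell in Plin2+/+ livers. Mknk1 turned its sign in Plin2-null livers with limma on TPM.

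Among 16 growth arrest genes, set beside Cgref1, 7 rose and 1 fell in Plin2-null livers and 10 rose and 1 fell in Plin2+/+ livers, with medians of 0.46 and 0.54. Cdkn1a, an inhibitor of cyclin-dependent kinases, rose by 3.15 ± 0.42 in Plin2-null and 2.91 ± 0.41 in Plin2+/+ livers, and Gadd45b by 3.53 ± 0.43 and 3.64 ± 0.41 in the same order (edgeR adjusted p of 2.14e-05 or less for each). Gadd45a fell, at -1.22 ± 0.46 in Plin2-null and -2.13 ± 0.50 in Plin2+/+ livers (edgeR adjusted p = 0.0414 and 0.00174), and Trp53 itself was at -0.03 and -0.14, not called (adjusted p = 0.866 and 0.384). With library size as the only scaling 4 rose and 1 fell in Plin2-null livers and 6 rose and 1 fell in Plin2+/+ livers. Family and pathway lists were drawn up with earlier results of these data known and stand as description.

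**Figure D5:**
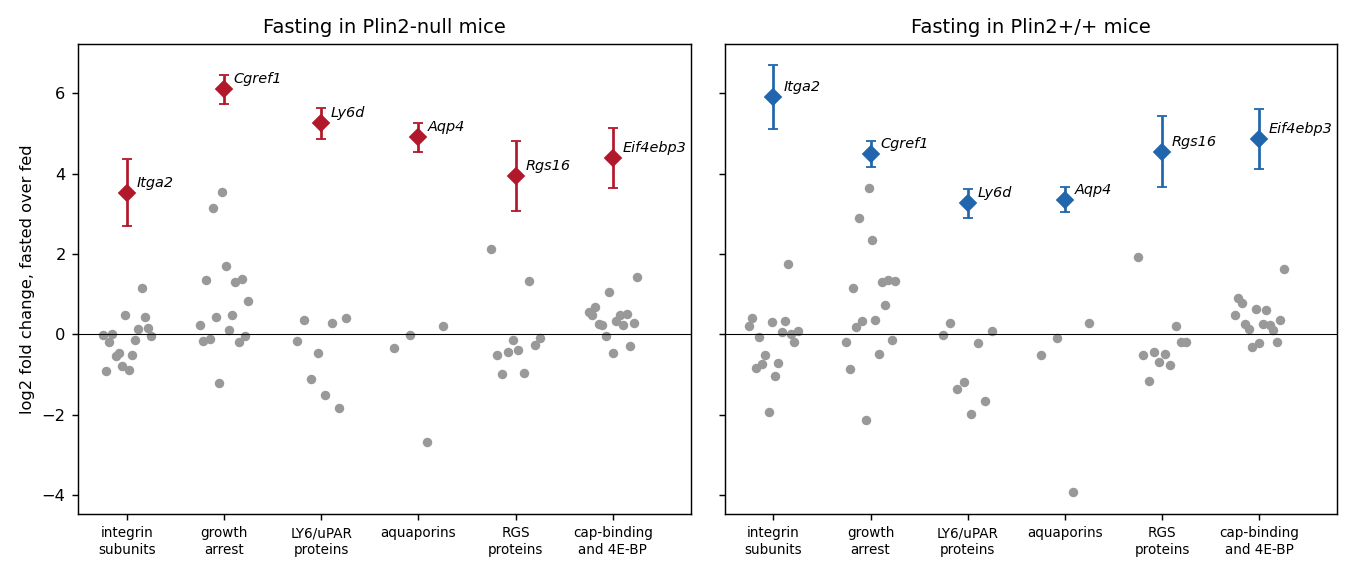
Log2 fold change on fasting of each of the 6 genes (diamond, with SE) and of the tested genes of its family or pathway (grey points), Plin2-null livers on the left. Each diamond stands above the points of its family, and the highest point beside Cgref1 is Gadd45b, at 3.53 in Plin2-null and 3.64 in Plin2+/+ livers.

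Markers of further cell types were measured too, and not all were low. The 5 astrocyte and gastric markers with TPM values summed to between 33.4 and 51.9 TPM in Plin2-null fasted and 54.2 and 69.8 in Plin2-null fed livers. In Plin2+/+ livers their sums were between 50.1 and 96.6 TPM fasted and 37.4 and 56.4 TPM fed. Pancreatic acinar markers summed to between 2.43 TPM, in a Plin2+/+ fasted library, and 36.0 TPM, in a Plin2-null fed one. Skeletal muscle markers, for Aqp4, summed to between 0.821 and 1.93 TPM in Plin2-null fasted, 1.03 and 2.35 in Plin2-null fed, 1.41 and 2.28 in Plin2+/+ fasted and 1.10 and 1.93 in Plin2+/+ fed livers. Of 4 astrocyte and gastric markers tested, Atp4a and Aldoc fell in both genotypes and Slc1a2, which hepatocytes also express, was at -0.05 ± 0.15 in Plin2-null livers and rose by 0.81 ± 0.15 in Plin2+/+ livers (edgeR adjusted p = 0.826 and 0.000204), while Atp4b was at 0 in all libraries. Both pancreatic acinar markers tested, Cela1 and Cela2a, fell in each genotype, and 5 adipocyte markers summed to at most 0.200 TPM. The part of such cells in the levels of Aqp4 was not tested.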

How the data were processed

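Libraries were strand-specific mRNA libraries from liver RNA, per the labels' protocols. The authors deposited 2 tables, raw counts per mouse Ensembl gene and TPM. The deposited TPM follow from the counts and 1 length per gene: once 1 factor per library was taken out, count over TPM was constant (tolerance 0.001) for 100.0% of 7109 genes whose counts exceeded 200 throughout. Reads were aligned with HISAT2 1.2.1 and counted with featureCounts 1.4.6-p1, per the submitters' processing notes, which list the human build GRCh38 although the identifiers are mouse. Annotation and strand setting: not given in the sources used here. The TPM header is shifted left by 1 cell. Symbols matched for 55141 of 55487 count rows, and 269 of 55493 TPM rows had none.

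The 6 genes and all lists were chosen with earlier results of these data known. A list of established fasting genes is not reported here. The counts went through filterByExpr, TMM scaling, glmQLFit (robust) and glmQLFTest of edgeR 4.0.16 (R 4.3.3), with 1 coefficient per group over all 20 libraries, and p-values were Benjamini-Hochberg adjusted over 16312 genes with a call under 0.05. Fold changes are log2, and SE is the absolute log2 fold change divided by the root of F. The procedure was tested on simulated data. Relations and likeness used log2 CPM with a prior count of 2. The 40 pairs of libraries within groups differed beyond sampling noise (smallest chi-square per degree of freedom 45.3), so each library counted as 1 replicate. Named genes were the 6; for each the 4 nearest in pattern with a mean of at least 1 CPM; neighbours within 50 kb or nearest on each side; of each list up to 4 with the smallest adjusted p and any other where the list is described; and Plin2. Positions came from GENCODE M21 (GRCm38).

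Alternatives tried were RLE size factors, scaling by library size alone, DESeq2 1.42.0, limma 3.58.1 on log2(TPM + 1) or log2(TPM + 0.1), a stricter filter (1 CPM in 5 libraries) or none, only the compared groups in the fit, and each library left out in turn. Correcting each library for GC content was an alternative chosen after seeing the data. Library totals of 25506471 to 65579038 counts set the counting precision. Python 3.11.15 and matplotlib 3.10.9 drew the figures.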

Additional observations from a re-analysis of the deposited data

Results flagged for a closer look

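In 4 of the 24 groups of 5 libraries examined, 1 library stood far from the other 4, judged by its gap to the nearest of them as a share of the whole range (limit 0.71). For independent values from a normal distribution, chance alone flags about 1 group in 20, or 5%. TPM values need not be spread that way, and the 24 groups come from the same 20 libraries. The 4 flags are therefore not read as more than chance gives. Itga2 had 11.6 TPM in Plin2+/+ fasted replicate 3, a gap of 0.891 of the range. Its highest Plin2+/+ fed library, replicate 4, had 0.143 TPM, a gap of 0.751, from at most 15 counts. Rgs16 had 28.2 TPM in Plin2+/+ fed replicate 5, a gap of 0.865. Eif4ebp3 had 6.60 TPM in Plin2-null fed replicate 1, a gap of 0.754. The 4 libraries are different ones, and each is the highest of its group for that gene.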

How the results depend on the processing

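The fasting rise of the 6 genes kept its sign in all 29 alternatives in both genotypes. As the genes were picked from these libraries for a steep rise, that is no support for it. Of 174 such values per genotype, 7 in Plin2-null and 8 in Plin2+/+ livers moved by at least the gene's SD within groups. No call of the 6 genes between genotypes changed sign. Of the called family and pathway genes, Mknk1 in Plin2-null livers changed sign with both limma fits, and 0 did with RLE size factors or library size alone. Genes called between genotypes in fasted livers numbered 528, and 1433 with DESeq2, 108 with library size alone, 319 with no filter on low counts, 17 and 14 with limma on log2(TPM + 1) and log2(TPM + 0.1), and 104 in the fit on the fasted groups alone. Leaving out 1 library gave 13 (without Plin2+/+ fasted replicate 2) to 1794 (without Plin2+/+ fasted replicate 5). Of the 6 genes, 2 were called there, 1 with no filter, and 0 with library size alone, either limma fit or the fasted groups alone; leaving out 1 library gave 0 to 3. In fed livers 3 of all genes were called, 7 with DESeq2, 7 and 5 with limma on log2(TPM + 1) and log2(TPM + 0.1). For the difference between the fasting effects 0 were called, 63 with DESeq2, 1 with no filter, 1 with each limma fit and 0 to 1 without 1 library. Of 15 pairs of the 6 genes 0 passed, and 2 on log2(TPM + 0.1). Calls on fasting split into 2942 higher and 2954 lower in Plin2-null and 3416 higher and 3541 lower in Plin2+/+ livers. With library size alone the split was 1376 to 4243 and 1854 to 4173, and with limma on log2(TPM + 1) it was 1022 to 4587 and 1570 to 3539. Removing each library's trend with GC content, chosen after seeing the data, left Ly6d at 1.35 and Itga2 at -2.55 between genotypes in fasted livers, both called. Fed counts of 3 to 25 for Cgref1 and 5 to 15 for Itga2 limit their fold changes, which fell to 3.29 and 0.53 in Plin2-null livers on log2(TPM + 1). No paired analysis was possible because the replicate numbers were given in accession order within each group and tie no library to a litter, batch or day.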
